A study of Mus musculus with 2 samples.

Results

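Lce1 genes encode small late cornified envelope proteins. The 10 genes described here are Lce1c, Lce1d, Lce1e, Lce1f, Lce1g, Lce1h, Lce1i, Lce1k, Lce1l and Lce1m, out of 30132 genes on the arrays, a number in which each probe without a gene name counts as a gene. They were chosen by name, with the measured difference of the family between the genotypes known, from the probe signals of both arrays after each was divided by its own 75th percentile. Their differences between the genotypes are therefore a description and no test. The family members left out of the choice were Lce1a1, Lce1a2, Lce1b and Lce1j.

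The mice were newborn, at postnatal day 0, on the C57BL/6N background. Pnpla1-/- mice descended from a knockout-first allele at the Pnpla1 locus, and were obtained by crossing heterozygotes, with Pnpla1+/+ littermates as controls. The methods also state that flippase was used to take out the reporter and selection cassettes. Skin RNA of 6 animals was pooled for each genotype and hybridized to 1 single-colour Agilent array per genotype. Replicates were therefore lacking, differences between genotypes could not be tested, and array and genotype cannot be told apart.

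The cornified envelope is the cross-linked protein shell that replaces the plasma membrane of keratinocytes as they leave the granular layer and become corneocytes. Transglutaminases join its precursors, among them loricrin, the small proline-rich (Sprr) proteins and the late cornified envelope (Lce) proteins, most of which are encoded side by side in the epidermal differentiation complex on mouse chromosome 3. Lce1 proteins belong to the set made late in normal epidermal differentiation, whereas Lce3 genes are known for their induction after barrier injury and in psoriasis. Pnpla1 encodes an enzyme of acylceramide synthesis, which supplies lipid to the outer face of the envelope.

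Lce1 genes are close copies of each other, so the sequence of each probe bears on what its signal can hold. The Lce1h probe (mm9 chr3:92567272-92567331, minus strand) and the second Lce1i probe (mm9 chr3:92581269-92581328, minus strand) had the same base at 56 of 60 positions. Their first 30 bases, 5′ to 3′, are shown with the bases that differ between them in capitals.
Lce1h: aagacttcaAacaaatGgtgcaggaggagc
Lce1i: aagacttcaGacaaatAgtgcaggaggagc
RNA of both genes may contribute to either signal, which was not tested. No other probe of the 10 genes shared a run of 20 bases with a probe of another gene on the array. Probes were compared with probes only and not with transcripts. Whether these probes also match RNA of another Lce1 gene therefore cannot be told from this. The Lce1d probe and the brighter Lce1i probe had the same base at 46 of 60 positions, with a longest shared run of 10 bases, and whether either binds RNA of the other gene was not tested. The longest run that the Lce1m probe shared with another Lce1 probe was 7 bases, close to the 8 bases of the dimmer Lce1c probe.

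Promoters of 9 of the 10 genes, all but Lce1f, were taken from RefSeq (GRCm38.p6). The 80 bases before the start site, 5′ to 3′, are shown for 7 genes to set the promoters that look alike beside those of Lce1k, Lce1l and Lce1m. Capitals mark the runs ATAAAA and TGTCTCA on the strand of the gene.
Lce1c: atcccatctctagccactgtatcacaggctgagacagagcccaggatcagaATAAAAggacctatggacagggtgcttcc
Lce1d: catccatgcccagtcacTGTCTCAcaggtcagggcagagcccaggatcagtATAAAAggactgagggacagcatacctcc
Lce1g: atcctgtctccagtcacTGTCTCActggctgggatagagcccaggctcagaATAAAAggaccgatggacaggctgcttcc
Lce1h: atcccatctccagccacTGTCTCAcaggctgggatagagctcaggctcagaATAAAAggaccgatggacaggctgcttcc
Lce1k: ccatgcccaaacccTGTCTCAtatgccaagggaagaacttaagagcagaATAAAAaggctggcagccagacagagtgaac
Lce1l: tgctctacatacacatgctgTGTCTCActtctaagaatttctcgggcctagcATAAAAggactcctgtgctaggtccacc
Lce1m: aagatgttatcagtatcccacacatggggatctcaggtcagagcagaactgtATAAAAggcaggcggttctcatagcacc
The Lce1c stretch is GRCm38.p6 chr3:92679167-92679246 on the plus strand. Those of Lce1d (chr3:92687211-92687290), Lce1g (chr3:92752339-92752418), Lce1h (chr3:92765066-92765145), Lce1k (chr3:92807892-92807971), Lce1l (chr3:92851287-92851366) and Lce1m (chr3:93019062-93019141) lie on the minus strand.

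The promoters of Lce1c, Lce1d, Lce1e, Lce1g, Lce1h and Lce1i formed a close group. Over the 100 bases before the start site, 73 to 90 bases were identical between any pair of them, with a median of 82 over 15 pairs. The Lce1k promoter had a median of 62.5 identical bases with the other members, that of Lce1l 56 and that of Lce1m 52. For comparison, the members and the 6 Lce3 genes shared a median of 52 of 100 bases, the same median as that of Lce1m against the other members.

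**Figure D1:**
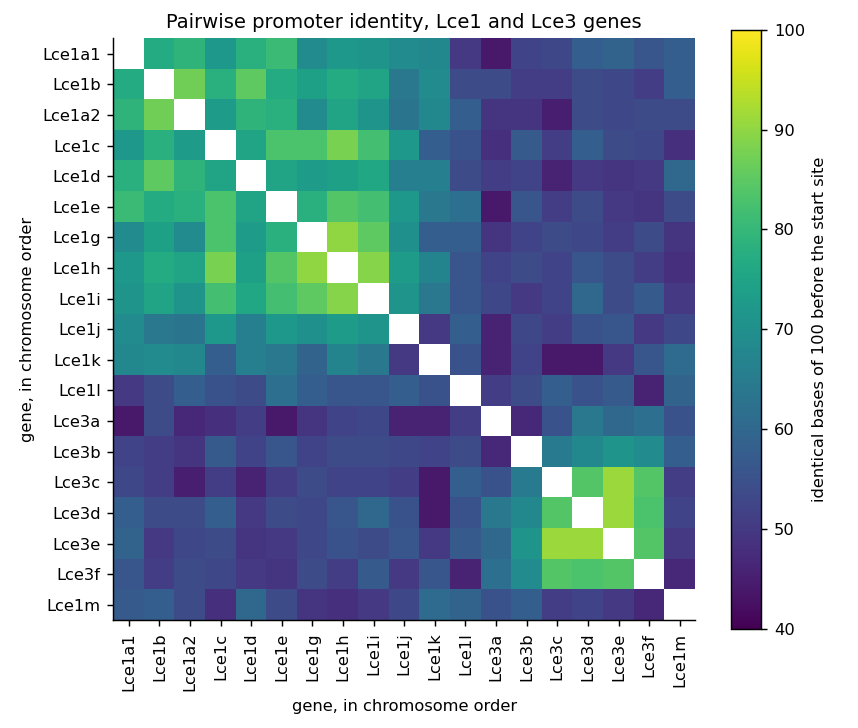
Identical bases among the 100 before the start site, after global alignment, for each pair of Lce1 and Lce3 genes with a RefSeq promoter, in chromosome order on both axes, with colour from 40 to 100 bases. The Lce1 genes up to Lce1i form a bright block of close copies, and Lce1l and Lce1m share about as few bases with that block as the Lce3 genes do.

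The run ATAAAA was present in all 9 member promoters, beginning 28 to 31 bases before the start site, and in 18.5% of all 32851 promoter windows, which span 250 bases before to 50 after a start site. It was also present in 3 of the 4 other Lce1 promoters and in all 6 Lce3 promoters, and so does not set the members apart. TGTCTCA was present on either strand in 8 of the 9, all but Lce1m, and in 4.90% of all windows, and in Lce1c it lay on the opposite strand. The 4 other Lce1 promoters held it, and none of the 6 Lce3 promoters did. Both runs were chosen after the sequences were seen. Of the motifs on the list, each searched on both strands, the TATA box TATAAA, which overlaps ATAAAA, was found in Lce1d and Lce1m and in 13.6% of all windows. The KLF box CCACCC was found in Lce1k (31.5% of all windows) and the antioxidant response element TGACNNNGC in Lce1d (12.4%). The AP-1 site TGANTCA (7.81% of all windows), the grainyhead site AACNGGTT (2.09%) and the C/EBP site TTGCNNAA (10.8%) had no match in these windows of the 9 genes.

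Pnpla1, the targeted gene, was checked first. Its probe (mm9 chr17:29026908-29026967) gave an intensity of 579 in Pnpla1+/+ and of 114 in Pnpla1-/- skin, which is -2.07 as a scaled log2 difference. Whether this probe lies in the deleted part is not given in the sources used here, so it is only a partial check of the labels. Intensities are the background-subtracted signals deposited by the authors, before scaling, and every difference is a log2 value, Pnpla1-/- minus Pnpla1+/+, taken after division by the array's 75th percentile, which was 2108 in Pnpla1+/+ and 1734 in Pnpla1-/- skin. In these bulk samples, fewer cells of a type and less RNA per cell cannot be told apart.

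All 10 genes were well above background on both arrays, none of their spots was saturated or flagged as an outlier, and each was lower in Pnpla1-/- skin. At least 2-fold lower values were found for 9 of the 10 genes, and for 11 of their 12 probes. Among the 22373 genes on the array for which a difference or a bound was obtained, 3.04% lay at or below the same line and 6.70% were higher by 2-fold or more. Because the genes were chosen with this contrast known, nothing is read from that comparison. The median difference of the 10 genes was -1.53, or 2.88-fold lower, and that of all genes was 0.00.

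**Figure D2:**
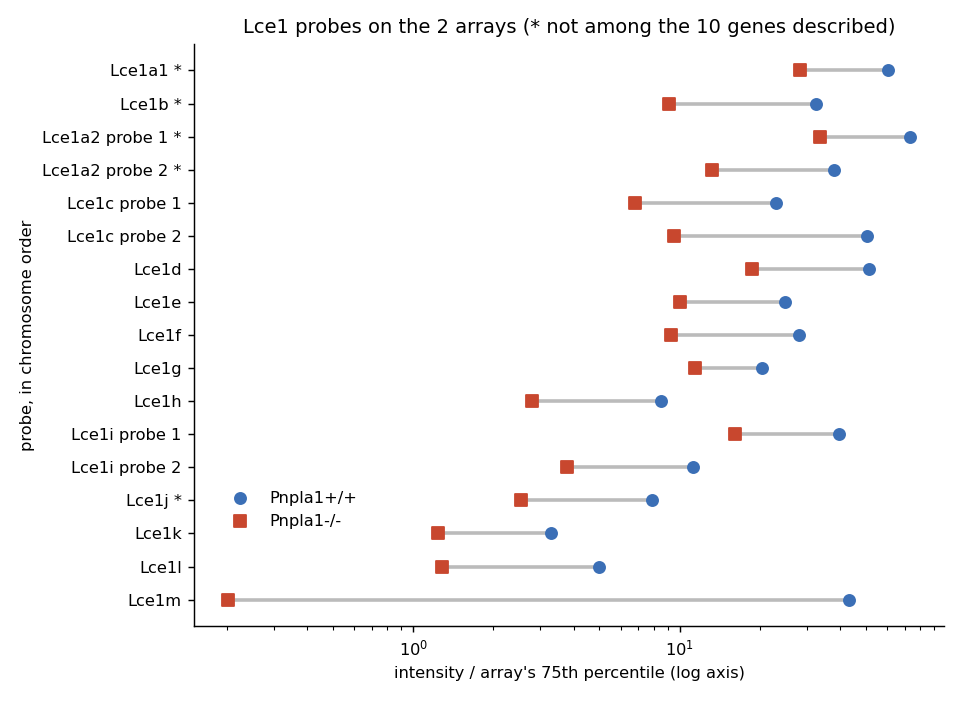
Intensity of each of the 17 Lce1 probes divided by the 75th percentile of its array, on a log axis, in Pnpla1+/+ (blue circles) and Pnpla1-/- skin (red squares), in chromosome order, with 1 array per genotype. In every probe the red square lies to the left of the blue circle, and the gap is by far the widest for Lce1m, with 43.1 against 0.203.

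Lce1m, the member farthest along the chromosome, is also listed by RefSeq as Lce5a. With the 1694 bounds taken as values, it had the lowest difference of all 22373 genes. Its probe (mm9 chr3:92821829-92821888) read 90931 in Pnpla1+/+ and 352 in Pnpla1-/- skin, a difference of -7.73, so that 0.470% of the scaled signal was left. The Pnpla1-/- signal was still well above background. Between Lce1m and the next lowest member lay a gap of 5.32 on the log2 scale.

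The other 9 genes lay between -2.41 and -0.84, with a median of -1.46 and an SD over genes of 0.44. Lce1c, the single family member read from the plus strand, followed Lce1m. Its brighter probe (mm9 chr3:92484714-92484773) read 106404 in Pnpla1+/+ and 16452 in Pnpla1-/- skin, a difference of -2.41, or 5.32-fold lower. The other Lce1c probe (mm9 chr3:92484400-92484459) read 48451 and 11764, a difference of -1.76. Both Lce1c probes were thus at least 2-fold lower, by unequal amounts. Lce1l, the last gene of the main cluster (mm9 chr3:92653871-92653930), read 10533 in Pnpla1+/+ and 2231 in Pnpla1-/- skin, a difference of -1.96.

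A narrow band held 7 genes, from -1.96 for Lce1l to -1.30 for Lce1i. Lce1h, whose probe is shown above, read 17873 in Pnpla1+/+ and 4844 in Pnpla1-/- skin, a difference of -1.60. The near-identical second probe of Lce1i read 23702 and 6531, a difference of -1.58. These nearly equal values came from the probes that either RNA may bind. The brighter Lce1i probe (mm9 chr3:92581159-92581218), with a longest run of 17 bases shared with another Lce1 probe, read 83685 and 27966, a difference of -1.30.

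Lce1f (mm9 chr3:92522631-92522690) read 58948 in Pnpla1+/+ and 16086 in Pnpla1-/- skin, a difference of -1.59. Lce1d (mm9 chr3:92489446-92489505) read 107946 and 32242, a difference of -1.46. These 2 differences lay between those of the dimmer Lce1k (-1.40) and Lce1h (-1.60) probes. The dim Lce1l probe was lower, at -1.96. Lce1k (mm9 chr3:92610226-92610285) read 6927 and 2151, a difference of -1.40. Lce1e (mm9 chr3:92511365-92511424) read 52272 and 17343, a difference of -1.31.

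Lce1g showed the smallest change and was the member above the 2-fold line. Its probe (mm9 chr3:92554289-92554348) read 42816 in Pnpla1+/+ and 19734 in Pnpla1-/- skin, a difference of -0.84, or 1.78-fold lower. The promoter of Lce1g is the closest among the members to that of Lce1h, with 90 of 100 bases identical, and Lce1h differed by -1.60. Without scaling the Lce1g difference was -1.12, and with centring on the spike-in probes -1.26, so its side of the 2-fold line depended on the scaling.

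Repeated spots measure technical error only. Over 52 probes with at least 8 spots and a Pnpla1+/+ intensity within the range of the members, the SD of a difference between spots had a median of 0.03 and a highest value of 0.06. The differences of the 10 genes were larger than this spot error, which does not cover the spread between mice or probes. Each probe of the 10 genes has 1 spot, so the spot error was taken from other probes. Probes of 1 gene differed by more, at -2.41 and -1.76 for Lce1c, -1.30 and -1.58 for Lce1i and -1.13 and -1.52 for Lce1a2. Spot error therefore cannot separate genes read from different probes. Nothing is read from the distance between Lce1g and the next member, Lce1i. Neighbours such as Lce1h and Lce1f (-1.60 and -1.59) or Lce1e and Lce1i (-1.31 and -1.30) did not differ beyond the spot error. The spread between mice is unknown.

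The family members left out of the choice were lower too. Lce1b, with 10 spots, read 66043 to 72329 in Pnpla1+/+ and 15004 to 17003 in Pnpla1-/- skin, with differences between -1.93 and -1.76 over the spots and -1.83 for their average. Lce1j, named from the description of its probe, read 16529 and 4419, a difference of -1.62. Lce1a2 read 154592 and 58228 on its brighter probe, a difference of -1.13, and 79648 and 22881 on the other, a difference of -1.52. Lce1a1 read 126974 and 48989, a difference of -1.09. The median of these 4 genes was -1.37, and all 4 were at least 2-fold lower, which made 13 of the 14 Lce1 genes on the array. Their range lay within that of the 10 genes.

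Along chromosome 3, 13 Lce1 genes lay within 203 kb, from Lce1a1 to Lce1l. Kprp, which encodes a keratinocyte proline-rich envelope protein, lies among them, 16.8 kb past Lce1k, and read 43369 in Pnpla1+/+ and 17121 in Pnpla1-/- skin, a difference of -1.06. On the side of Lce1a1 the next gene, 2210017I01Rik, read 1352 and 1252, a difference of 0.17. On the other side the next gene past Lce1l, 2310050C09Rik, read 57276 and 26351, a difference of -0.84.

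Lce1m stood apart in position as well, 168 kb from Lce1l, with the 6 Lce3 genes between them. All 6 Lce3 genes were at least 2-fold higher, from 3.74 for Lce3c (6801 in Pnpla1+/+ and 74563 in Pnpla1-/- skin) to 9.75 for Lce3a (57.7 and 40951). Lce3f, 24.7 kb before Lce1m, read 51.0 and 6873, a difference of 7.36. The 2 Lce subfamilies therefore had differences of opposite sign in these pools. Crct1, a cysteine-rich envelope gene 3.64 kb before Lce1m, read 116699 and 82537, a difference of -0.22. Tdpoz8, the next gene past Lce1m, read 3356 and 2884, a difference of 0.06. Neither neighbour of Lce1m was 2-fold changed.

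**Figure D3:**
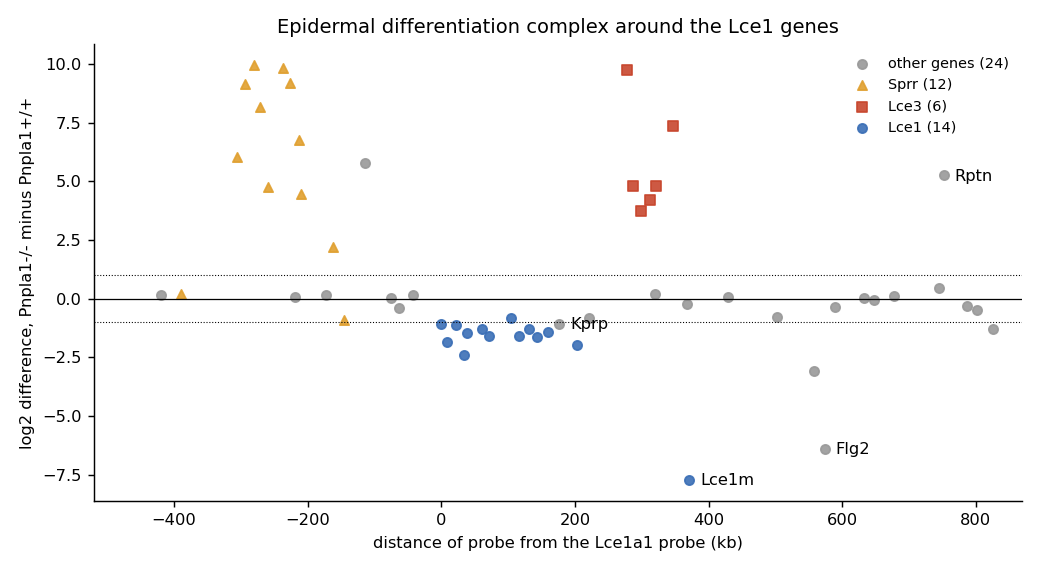
Log2 difference (Pnpla1-/- minus Pnpla1+/+) of each gene from 500 kb before to 850 kb after the Lce1a1 probe, by distance of its probe in kb, with dotted lines at 2-fold and 1 array per genotype. Blue Lce1 points run in a band below 0 from Lce1a1 to Lce1l, with Lce1m alone far below at -7.73, just past the Lce3 genes (red squares, 3.74 to 9.75).

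Over the whole complex, taken as the stretch between the outermost S100a probes, 79 of 85 genes or unnamed probes had a difference or a bound, with a median of 0.08. The 2-fold line was passed by 23 of them upwards and by 20 downwards, and 13 of those 20 were Lce1 genes. Outside the family the difference nearest to the median of the 10 genes was that of S100a3, a calcium-binding protein of the hair cuticle, which read 8390 in Pnpla1+/+ and 2243 in Pnpla1-/- skin, a difference of -1.62. It was followed by Tchhl1, a trichohyalin-like gene (1975 and 672, a difference of -1.27), Kprp, Sprr4 (324 and 141, a difference of -0.92) and 2310050C09Rik. Likeness here is the distance between differences over 2 arrays.

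The other envelope precursors of the complex differed in both directions. Of 9, 2 were at least 2-fold lower and 1 was at least 2-fold higher, with a median of -0.04. Flg2, a filaggrin-like protein of the granular layer, read 20467 in Pnpla1+/+ and 198 in Pnpla1-/- skin, a difference of -6.41. The Flg2 probe lay 203 kb past that of Lce1m, and its difference was the one closest in size to that of Lce1m among these precursors. Repetin (Rptn) read 603 and 19047, a difference of 5.26. The brightest precursors stayed within 2-fold, with loricrin (Lor, 243070 and 162800) at -0.30 and filaggrin (Flg) between -0.76 and -0.04 over its 3 probes. The paper reports less filaggrin and loricrin in Pnpla1-/- skin, by qPCR and by immunofluorescence staining. A difference within 2-fold on these arrays is therefore not read as no change. The list median is the value of the brightest Flg probe, and with either other Flg probe, an alternative chosen after the values were seen, it was -0.22.

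Among Sprr genes, which encode the small proline-rich bridges of the envelope, a value at least 2-fold higher was found for 10 of the 12 with a difference or a bound, and none was 2-fold lower, with a median of 6.40 that takes Sprr2k at its bound. Sprr2d, for example, read 5673 in Pnpla1+/+ and 303132 in Pnpla1-/- skin, a difference of 6.02. Sprr2a2, bright on both arrays with 139296 and 130335, differed by 0.19. Several Sprr2 genes are near-identical copies, so their single values are uncertain.

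None of the 11 genes on a list of transglutaminases, scaffold proteins and other envelope-associated proteins was 2-fold lower. A value at least 2-fold higher was found for 6 of them, and the list median was 1.27. Transglutaminase 1 (Tgm1) read 2942 in Pnpla1+/+ and 8764 in Pnpla1-/- skin, a difference of 1.86, and Tgm3 read 1085 and 3866, a difference of 2.12. Tgm5 differed by 1.27, cornifelin (Cnfn) by 2.35, and the cystatins Cstb and Csta1 by 1.32 and 2.03. The scaffold genes envoplakin (Evpl, 0.30) and periplakin (Ppl, -0.03) stayed within 2-fold.

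Of 16 transcription regulators known from late epidermal differentiation, 3 were at least 2-fold higher and none 2-fold lower, with a median of 0.33. Grainyhead-like 3 (Grhl3), which acts in barrier formation, read 4689 in Pnpla1+/+ and 21384 in Pnpla1-/- skin, a difference of 2.47. Ovol1 differed by 1.59, and Hopx was 2.83-fold higher. Klf4, a factor needed for barrier acquisition, read 37873 and 37186, a difference of 0.26, and the other regulators among the 4 with the highest mean log2 signal over both arrays, Cebpb, Grhl1 and Gata3, differed by 0.82, 0.15 and -0.27. RNA levels of these regulators are given beside the Lce1 values, and their part in the Lce1 result was not tested.

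**Figure D4:**
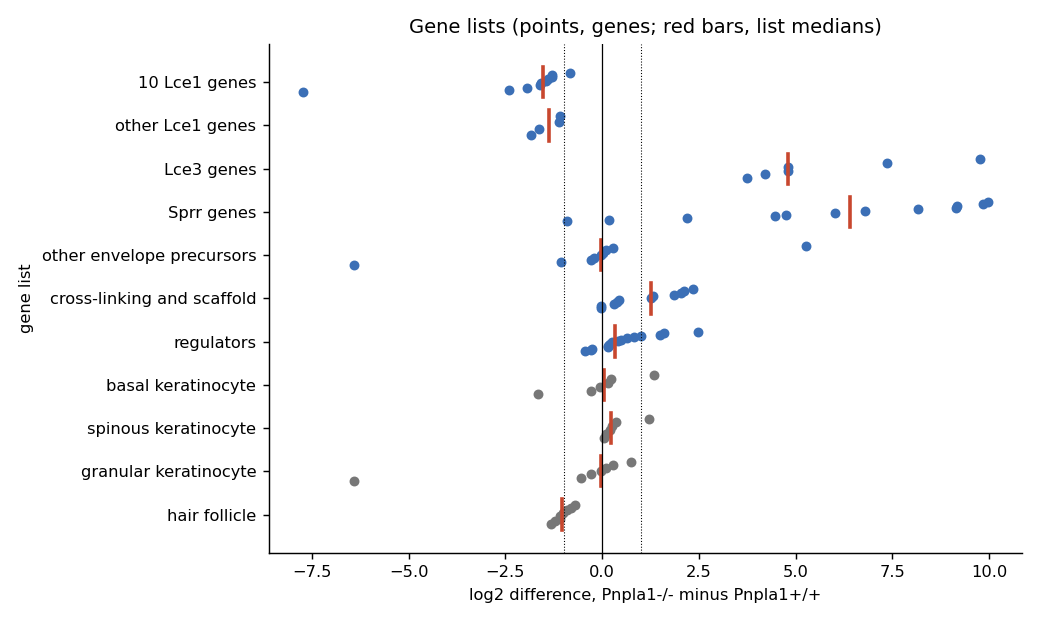
Log2 difference (Pnpla1-/- minus Pnpla1+/+) of each gene in 11 lists, with a red bar at the median of each list, dotted lines at 2-fold and 1 array per genotype. The Lce1 lists lie below 0 with Lce1m at the far left, the Lce3 and Sprr lists reach 9.75 and 9.98, and the keratinocyte marker lists centre near 0.

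All markers of keratinocytes, hair follicle, fibroblasts, muscle, endothelium, melanocytes and leukocytes were well above background on both arrays. Leptin (Lep), 1 of the 5 adipocyte markers, was not above background on either array. Granular-layer markers, from the layer in which Lce1 genes are made, had a median difference of -0.04, with 1 of 7 (Flg2) at least 2-fold lower. This median too is that of the brightest Flg probe, and with either other Flg probe it was -0.30. Their summed intensity was 609894 in Pnpla1+/+ and 473308 in Pnpla1-/- skin, which is -0.08 on the log2 scale after scaling, and Lor was the brightest. Spinous markers (median 0.22, 1 of 6 at least 2-fold higher) summed to 758053 and 697773, or 0.16 after scaling, with Krt10 the brightest. Basal markers had a median of 0.06, with Krt14 higher at 1.35 and Krt15 lower at -1.67. They summed to 403733 and 385121, or 0.21 after scaling, with Krt5 the brightest. Most of these keratinocyte markers differed by less than 2-fold, the exceptions being Flg2, Krt14, Krt15 and Dsc1. What the marker values mean for the Lce1 genes was not tested.

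Hair follicle markers were lower with the Lce1 genes. Of 8, 5 were at least 2-fold lower, with a median of -1.05, and their summed intensity was 188135 in Pnpla1+/+ and 79048 in Pnpla1-/- skin. The brightest, Krt71, a keratin of the inner root sheath, read 84119 and 39193, a difference of -0.82, and the largest difference was that of Krt35, at -1.33. None of the 8 was below background. Their part in the Lce1 result was not tested. No fibroblast, adipocyte, muscle, endothelial or melanocyte marker was 2-fold changed, while 2 of 6 leukocyte markers were at least 2-fold higher (Ptprc, 1.51, and Lyz2, 2.35), with summed intensities of 30786 and 36102 and Csf1r the brightest. The erythroid gene Alas2 was at least 2-fold higher, at 1.32.

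Scaling set the level of all differences but not the sign of any Lce1 gene. The median over all genes moved to -0.28 without scaling and to -0.43 with centring on the 8 E1A spike-in probes, and the share of higher genes among those 2-fold changed fell from 68.8% to 41.2% and 27.9%. A scaling by 1 factor per array shifts every gene alike and cannot move the genes relative to each other. Under the settings that treat genes by their intensity, the median of the 10 genes minus that of all genes was -1.57 with quantile normalization, -1.57 with cyclic loess and -1.56 with normexp background correction, against -1.53 with 75th percentile scaling. Over all settings, those on probes included, Lce1m ranged from -8.16 to -7.49 and Lce1c from -2.84 to -2.09. The Lce1c value of -2.09 came from the mean over its probes and not from a scaling.

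**Figure D5:**
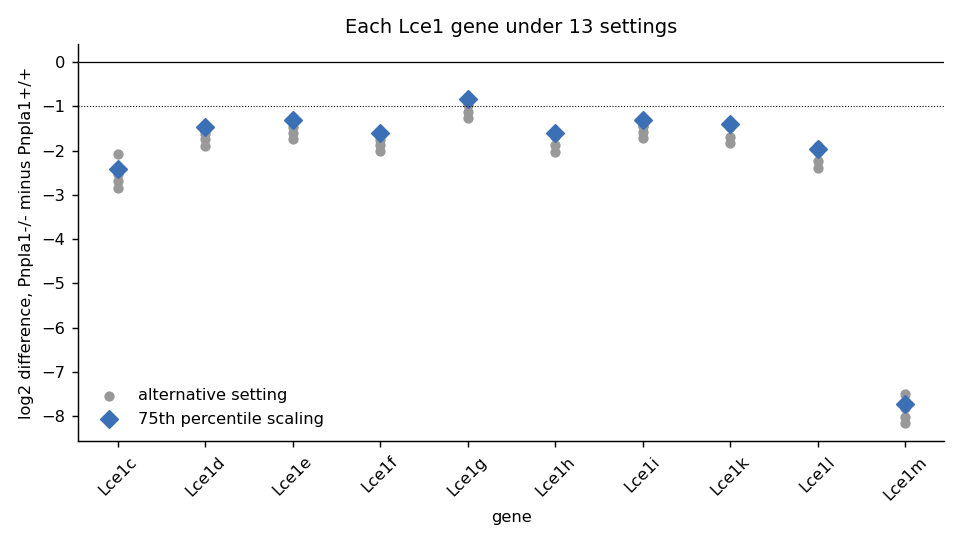
Log2 difference (Pnpla1-/- minus Pnpla1+/+) of each of the 10 genes with 75th percentile scaling (blue diamonds) and under 12 alternative settings (grey points), with a dotted line at 2-fold. Every point lies below 0, Lce1m is far below the others under each setting, and Lce1g is the gene whose points lie on both sides of the 2-fold line.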

How the data were processed

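Skin RNA of newborn Pnpla1+/+ and Pnpla1-/- mice was hybridized by the authors to Agilent mouse 4x44K v2 arrays after single-colour labelling. Per the labels and file headers, the images were read with Agilent Feature Extraction 11.5.1.1. The authors deposited for each spot a linear intensity, background-subtracted and not scaled between arrays, with flags for spots well above background, saturated or outlying. The table of ratios deposited by the authors holds each intensity divided by 1 factor per array, 2109 in Pnpla1+/+ and 1734 in Pnpla1-/-, with medians of 0.0956 and 0.102. The labels call the tissue skin, and the series description also speaks of epidermis.

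From 43020 non-control spots, log2 intensity minus log2 of the array's 75th percentile was computed (Python 3.11.15, numpy 2.4.6, pandas 2.3.3). Of the spots, 71.7% in Pnpla1+/+ and 73.3% in Pnpla1-/- were well above background and none was saturated. Outlier-flagged spots (138 and 82) were left out, spots of a probe were averaged, and a gene was taken by its brightest probe (mean log2 signal over both arrays). Of 30132 genes (unnamed probes each counted as 1), 20679 were above background on both arrays and 1694 on 1 array, with a bound as their difference. Probe names were updated through RefSeq (GRCm38.p6), which matched 31460 of 39429 probes, 4 of them (Flg and Lce1j) from the probe description, chosen after their values were seen. Probe coordinates are those of the files (mm9). Genes were counted at 2-fold. With 1 array per genotype no test, p-value or SD between mice is given, and precision is limited by the number of arrays.

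The genes named are the 10 members with every probe, the other Lce1 genes, Pnpla1, list genes that were 2-fold changed or among the 4 of their list with the highest mean log2 signal, the neighbours of the Lce1 genes, and the 5 genes of the complex nearest to the members' median. The members and lists were chosen with earlier results of these data known, and the red blood cell list is not reported here in full. Promoters were aligned globally in Biopython 1.88. The alternatives were other scalings, quantile normalization, cyclic loess and normexp with an offset of 50 (limma 3.58.1, R 4.3.3), spike-in centring, the deposited ratios, other probe rules and other thresholds. The computation was tested on simulated data with differences well past the 2-fold line, so the test does not bear on values near that line.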

Additional observations from a re-analysis of the deposited data

How the results depend on the processing

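All 10 Lce1 genes and the 4 other Lce1 genes were lower in Pnpla1-/- skin under each of the 12 alternative settings. Of 168 values of single genes under these settings, 97 moved by less than the technical SD of repeated spots (0.04, over 305 probes) and 71 moved by more, with none reversed. The median of the 10 genes, -1.53, was -1.57 with cyclic loess, -1.60 with median scaling, -1.64 with quantile normalization, -1.81 without scaling and -1.95 with spike-in centring. The median of the other 4, -1.37, was -1.42 with cyclic loess, -1.44 with median scaling, -1.47 with the mean over all probes, -1.50 with quantile normalization, -1.66 without scaling and -1.80 with spike-in centring. Pnpla1, at -2.07, was at -1.51 with normexp background correction, -2.14 with both median scaling and quantile normalization, -2.35 without scaling and -2.49 with spike-in centring. A 2-fold lower value was found for 9 of the 10 genes in all settings except no scaling and spike-in centring, which gave 10, and 5 were at least 3-fold lower. Counts of all genes are also given as shares, since the number of genes with a difference varied between settings. The 681 genes at least 2-fold lower (3.04%) became 321 (1.45%) with normexp, 1424 (6.38%) without scaling, 2147 (9.68%) with spike-in centring, 2092 (9.35%) at 1.5-fold, 228 (1.02%) at 3-fold and 3.67% of 30132 genes with no filter on dim probes. The 1499 at least 2-fold higher (6.70%) became 960 (4.34%) with normexp, 998 (4.47%) without scaling, 829 (3.74%) with spike-in centring, 3092 (13.8%) at 1.5-fold, 684 (3.06%) at 3-fold and 3041 (10.1%) with no filter on dim probes. The cause was not tested. No paired analysis was possible because each genotype has 1 array, and a slide or scan term could not be fitted.

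Each pool is 1 sample, so no difference has a replicate check, and the spread of repeated spots covers hybridization and scanning only. Every probe of the genes described is a single spot, and only Lce1b in the family has repeated spots, so a fault of 1 spot would not be seen.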
